A study of Tachysurus fulvidraco x Tachysurus vachelli with 6 samples.

Results

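The genes described here encode transcription factors, taken as the genes whose protein description in the deposited table contains homeobox, forkhead, transcription factor, nuclear receptor subfamily or helix-loop-helix. Descriptions with zinc finger, mitochondri or kinase and the NF-κB genes rel and relb were left out. This gave 49 of the 2451 complete genes of the table, of which 15 carry the word homeobox, 9 forkhead, 1 nuclear receptor subfamily and 0 helix-loop-helix, while the other 24 are described only as a transcription factor. The words sort genes by description and not by protein family. The putative Ovo-like 1 gene encodes a zinc finger protein, LBX1 and LBX2 have a homeodomain, and TCF4, TCF12 and the HES-7 proteins are helix-loop-helix proteins, yet all of these stand in the last class.

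Transcription factors are proteins that bind short DNA motifs and set how often nearby genes are transcribed. Homeobox proteins bind DNA through a homeodomain and are best known for patterning the embryo. Forkhead proteins use a winged-helix domain, nuclear receptors use zinc modules and often a ligand pocket, and SOX, ETS, T-box, E2F and basic leucine zipper proteins are further families with a DNA-binding domain of their own. In adult skin such factors maintain the layers of the epidermis, and others serve leukocytes, vessels, nerves and pigment cells or respond within minutes to hours to stress.

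The skin came from juvenile hybrid yellow catfish, a cross of female Tachysurus fulvidraco with male P. vachellii, and was cut from the left flank behind the dorsal fin. Of the 6 libraries, 3 (transport replicates 1 to 3) were from fish after 16 h of simulated transport, in which fasted fish were shaken in sealed bags of water under oxygen. The other 3 (control replicates 1 to 3) were from untreated fish kept in a recirculating system. Whether a library held the skin of 1 fish or of a pool, and whether the control fish were fasted, could not be read from the sources, so p-values measure the spread between these libraries. In whole skin, fewer cells of a type and less RNA per cell cannot be told apart.

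The table lists reads per gene and library, and beside them the FPKM (a fragment count corrected for how long the transcript is and how deeply the library was sequenced). Its counts summed to 3726582 to 4487002 in transport libraries and 3632651 to 4430981 in control libraries, which is between 12.03% and 12.46% of the mapped reads that the study states, so the 2451 genes are a part of the transcriptome and "all genes" means those of this table. Counts were tested in edgeR (quasi-likelihood test) for the 1620 genes whose FPKM averaged 0.5 or more over the libraries. The scaling factors (TMM) of this test were 1.053 to 1.174 in transport libraries and 0.712 to 1.043 in control libraries, with 0.712 in control replicate 1. The median log2 fold change of all genes tested was -0.02 with these factors and 0.27 without them, so an FPKM can stand higher after transport while the fitted fold change is near 0 or below it. Control replicate 1 had the lowest FPKM of the 6 libraries in 15 of the 27 transcription factor genes tested (55.6%) and in 1024 of the 1620 genes (63.2%).

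Most of these genes were expressed weakly in skin. Of the 49, 27 reached a mean FPKM of 0.5 (55.1%), against 66.1% of all genes of the table and 78% of the 50 genes described as zinc finger proteins. A mean FPKM of 10 or more was found for 4 genes, 1 to 10 for 18 and 0.5 to 1 for 5. atf4, which encodes a leucine zipper factor that carries out the integrated stress response, stood far above the others with a mean FPKM of 612. It ranked 14th of the 2451 genes and held on average 82.1% of the summed FPKM of the 49 genes in transport libraries and 84.1% in control libraries. The next highest mean FPKM were 18.2 for the ETS family gene Elf-1-like (LOC113635831), 16 for the putative Ovo-like 1 gene (LOC113635229) and 12.8 for the nuclear receptor subfamily 4 group A member 1-like gene (LOC113635269). The plot of levels orders the 27 tested genes by mean FPKM.

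**Figure D1:**
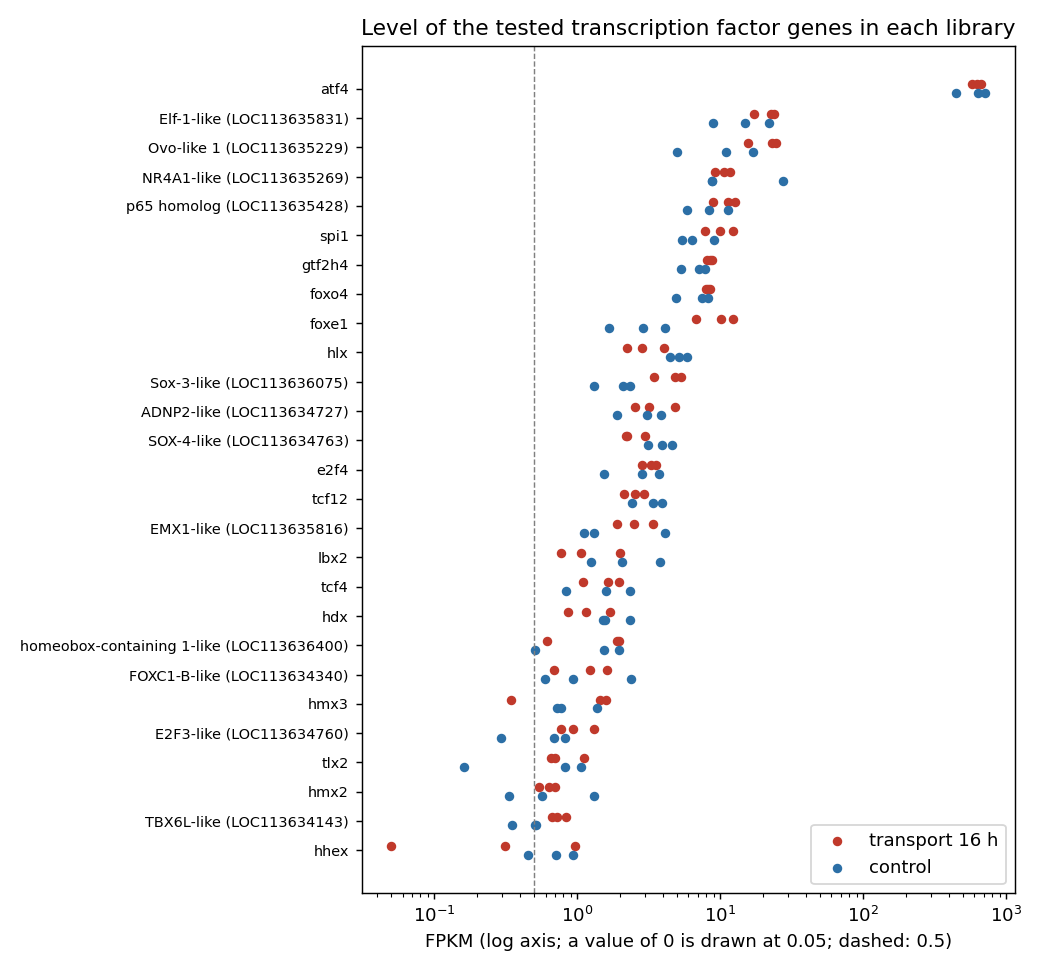
FPKM (log axis) of the 27 tested transcription factor genes in each library, ordered by mean, with transport libraries in red above control libraries in blue. atf4 lies near 612 and all other genes have a mean of 18.2 or less, and for most genes the red and blue points overlap.

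No transcription factor gene passed the test over all genes. At an adjusted p under 0.05 (edgeR, with Benjamini-Hochberg adjustment over all 1620 genes), 0 of 27 were higher and 0 lower after transport, where 0.37% of all genes tested were higher and 0.247% lower. The smallest adjusted p was 0.0749. At an unadjusted p under 0.05, 2 were higher, the forkhead gene foxe1 and the Sox-3-like gene LOC113636075, and 2 were lower, the SOX-4-like gene LOC113634763 and the homeobox gene hlx. That is 7.41% in each direction, against a background of 7.72% of all genes higher and 9.14% lower, so the share is near the background. DESeq2 called exactly these 4 genes at an adjusted p under 0.05, 2 higher (background 4.38%) and 2 lower (background 5.12%). limma on log2(FPKM + 0.5), which used no TMM factors, called 0 (background 0.617% higher and 0.123% lower). Before adjustment limma put 3 higher (background 16%) and 1 lower (background 3.33%) below 0.05. With the fold and p thresholds of the study's methods, which ask for a log2 ratio of the group means of 1 or more in either direction together with p under 0.05, foxe1 and the Sox-3-like gene were higher (background 4.51%) and 0 were lower (background 3.58%). With an FPKM over 10 required as well, a further criterion given with the results of the study and read here as the mean of either group, 0 of 27 were higher (background 1.42%) and 0 lower (background 1.05%). The median fitted log2 fold change of the 27 genes was -0.08, beside -0.02 for all genes tested. Of the 27, 10 had a positive and 17 a negative value, where 777 and 843 of all genes tested did. Without TMM factors the medians were 0.25 and 0.27.

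In 4 of the 27 genes every transport library had a higher FPKM than every control library, and in 2 it was lower in every transport library. The same held for 24.1% and 3.7% of all genes tested. The 4 were foxe1, the Sox-3-like gene, the T-box gene LOC113634143 and gtf2h4, and the 2 were the SOX-4-like gene and hlx. On TMM-scaled counts there were 3 (background 12.9%) and 3 (background 11.2%), since gtf2h4 dropped out of the higher genes and atf4 entered the lower ones. For a single gene, an exact permutation test of 3 against 3 libraries cannot give a two-sided p below 0.1.

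Among the 9 forkhead genes, foxe1 had the largest fitted difference of all 27 genes. FOXE1 is needed for thyroid development in mammals and is also expressed in the mouse hair follicle. foxe1 occupies bases 345589 to 347849 of scaffold NW_020848138.1, plus strand, in the coordinates of the table, whose genome build is not stated. It reached 12.3, 6.81 and 10.2 FPKM in transport replicates 1, 2 and 3, against 1.68, 2.87 and 4.10 in control replicates 1, 2 and 3. The groups did not overlap, and the lowest transport library stood above the highest control library. The mean FPKM was 9.76 ± 2.77 (SD, n = 3) after transport and 2.89 ± 1.21 (SD, n = 3) in controls, and the fitted log2 fold change was 1.49 ± 0.27 (standard error), with an adjusted p of 0.0749 from edgeR's test. Over 19 alternative settings the log2 fold change was 1.33 to 1.77 and the adjusted p 8.7e-05 to 0.372. It was called by DESeq2 and, in edgeR's test, without control replicate 3 (adjusted p = 0.0389).

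The other forkhead genes showed no difference of that kind. foxo4, a FOXO factor that insulin and Akt signalling keeps out of the nucleus in mammals, had an FPKM of 8.51, 8.19 and 8 in transport replicates 1, 2 and 3, against 4.94, 7.45 and 8.22 in control replicates 1, 2 and 3. Only control replicate 1 stood apart. The fitted log2 fold change was -0.03 (standard error 0.11), and 0.26 without TMM factors. The forkhead box C1-B-like gene LOC113634340, whose mammalian counterpart acts in mesoderm and the eye, had an FPKM of 0.689 to 1.61 in transport libraries and 0.594 to 2.39 in control libraries. Its log2 fold change was -0.44 (standard error 0.55).

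The other 6 forkhead genes were below the mean of 0.5 and were not tested. foxi1, whose relatives specify ion-transporting cells of fish skin in zebrafish, was nearest to it with a mean FPKM of 0.493. It had 0.448 to 0.631 in transport libraries, against 0.083, 0.69 and 0.558 in control replicates 1, 2 and 3. FOXQ1-like (LOC113634342) had 0.172 to 0.576 in transport libraries and 0.236 to 1.01 in control libraries. FOXD1-like, FOXN2-like, FOXF2-like and FOXD5-A-like had means of 0.378, 0.298, 0.07 and 0.0474. Some of these loci are neighbours, since FOXC1-B-like, FOXF2-like and FOXQ1-like follow each other on the minus strand of scaffold NW_020848147.1 with gaps of 2093 and 4576 bases. Their mean FPKM nevertheless differed, at 1.24, 0.07 and 0.47.

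The tested SOX genes had fold changes of opposite sign, and neither passed edgeR's test over all genes. SOX proteins bind DNA through an HMG box, SOX3 is known from neural progenitors, and SOX4 from progenitor cells of many tissues. The Sox-3-like gene LOC113636075 (scaffold NW_020848201.1, 10207039 to 10209707, minus strand) had an FPKM of 5.35, 3.45 and 4.84 in transport replicates 1, 2 and 3, against 1.32, 2.10 and 2.33 in control replicates 1, 2 and 3. Every transport library was above every control library. edgeR's test put the log2 fold change at 0.95 with a standard error of 0.21 and an adjusted p of 0.128. The adjusted p was 0.0014 in DESeq2 and up to 0.5 over the 19 alternatives.

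The SOX-4-like gene LOC113634763 (scaffold NW_020848162.1, 2764271 to 2767842, plus strand) was lower after transport in every library. Its FPKM was 3.00, 2.24 and 2.20 in transport replicates 1, 2 and 3, against 3.12, 4.62 and 3.91 in control replicates 1, 2 and 3. The groups did not overlap, but transport replicate 1 and control replicate 1 were close. The log2 fold change was -0.96 ± 0.19 (standard error), with an adjusted p of 0.0904 from edgeR's test. Over the alternatives the adjusted p ran from 4.8e-04 in DESeq2 to 0.481, and the gene was also called by limma voom with sample weights (0.0359) and, in edgeR's test, without control replicate 3 (0.0487). The log2 fold change was -0.65 without TMM factors. sox21, also a SOX gene, had a mean FPKM of 0.362 and was not tested.

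**Figure D2:**
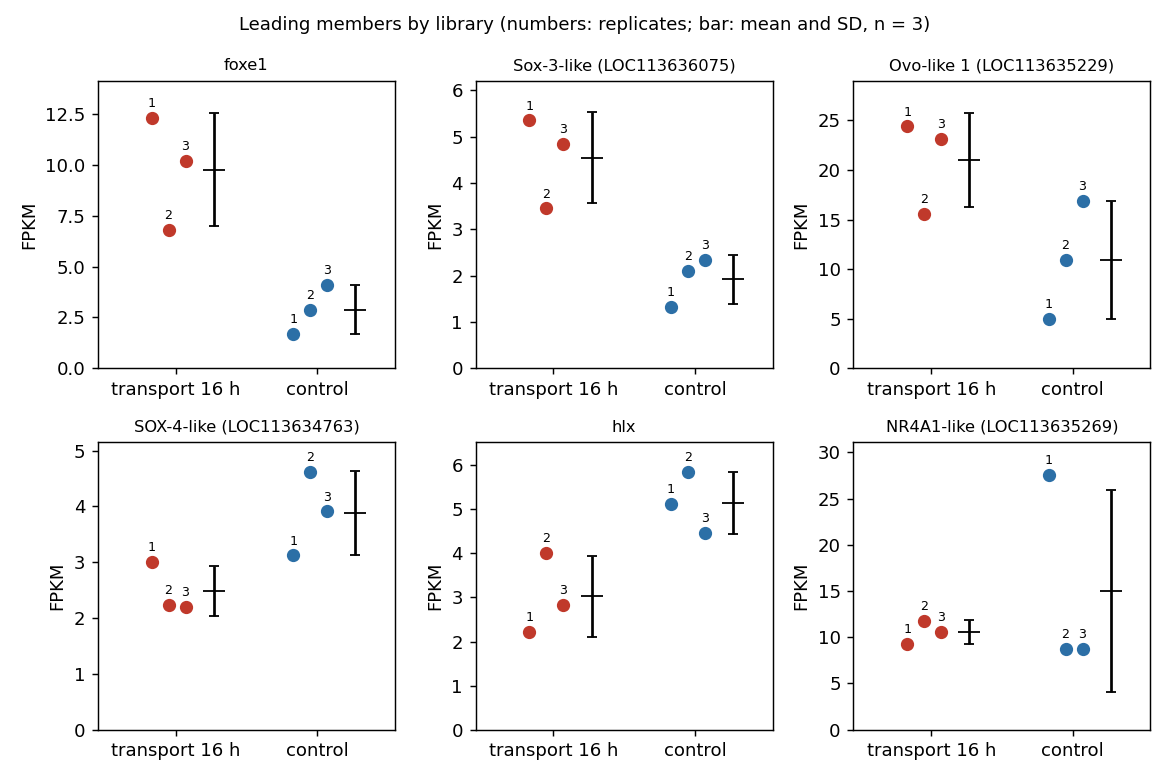
FPKM of 6 transcription factor genes by library, with transport libraries (red) left of control libraries (blue), replicate numbers at the points, and the mean with its SD (n = 3) beside them. foxe1 and Sox-3-like are higher in all transport libraries, SOX-4-like and hlx are lower in all of them, Ovo-like 1 overlaps, and NR4A1-like has 27.6 in control replicate 1 against 8.70 to 11.8 elsewhere.

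All 15 homeobox genes had low levels, with a median FPKM of 0.68 and a highest mean of 4.09. Of the 9 tested, 8 had a negative fitted log2 fold change, where 843 of all 1620 genes tested had one. Some of these values were near 0, such as -0.04 for LOC113634727 (standard error 0.26) and -0.09 for tlx2 (standard error 0.72). Among the 9, 0 passed edgeR's test after adjustment (0.247% of all genes were lower), and 1 was lower at an unadjusted p under 0.05 (background 9.14%). Their median log2 fold change was -0.09, and 0.18 without TMM factors, so the sign of this median went with the scaling. In DESeq2 the only homeobox gene called was hlx, and limma called 0.

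The gene with the highest mean was hlx, the H2.0-like homeobox gene (scaffold NW_020847774.1, 940074 to 942928, minus strand), whose mouse counterpart is required for growth of the liver and gut. Its FPKM was 2.22, 4.02 and 2.84 in transport replicates 1, 2 and 3, against 5.12, 5.85 and 4.46 in control replicates 1, 2 and 3. The groups did not overlap. The mean was 3.03 ± 0.916 (SD, n = 3) after transport and 5.14 ± 0.698 (SD, n = 3) in controls, and the log2 fold change was -1.10 ± 0.34 (standard error), with an adjusted p of 0.21 from edgeR's test. The adjusted p was 0.0415 in DESeq2 and at most 0.546 over the alternatives, and its log2 fold change -1.40 to -0.63.

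The other tested homeobox genes overlapped between groups. The highly divergent homeobox gene hdx had an FPKM of 0.858, 1.70 and 1.15 in transport replicates 1, 2 and 3 and 1.56, 2.33 and 1.52 in control replicates 1, 2 and 3. The EMX1-like gene LOC113635816, from a family known in the forebrain, had 3.37, 1.91 and 2.51 in transport replicates and 1.11, 1.32 and 4.14 in control replicates, and its log2 fold change was 0.01 (standard error 0.46). The activity-dependent neuroprotector homeobox 2-like gene LOC113634727 had 2.54 to 4.83 in transport libraries and 1.90 to 3.83 in control libraries. In each of these genes at least 1 transport library lay within the range of the control libraries.

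hhex, which in vertebrates marks early endoderm, vessels and blood progenitors, was the most uneven. It had 0, 95 and 34 counts in transport replicates 1, 2 and 3, against 78, 82 and 43 counts in control replicates 1, 2 and 3. The log2 fold change was -1.01 with a standard error of 1.29, the largest of the 27 genes. hmx3 and hmx2, inner ear and nervous system genes in vertebrates, lie 2839 bases apart on scaffold NW_020848136.1. hmx3 had an FPKM of 0.343, 1.58 and 1.44 in transport replicates 1, 2 and 3 and 0.775, 1.37 and 0.725 in control replicates 1, 2 and 3, while hmx2 had 0.63, 0.696 and 0.543, against 0.336, 1.31 and 0.566. In both genes control replicate 2 was the highest control library. tlx2 and the homeobox-containing protein 1-like gene LOC113636400 also overlapped, with 0.654 to 1.11 and 0.614 to 1.95 in transport libraries and 0.162 to 1.07 and 0.506 to 1.95 in control libraries.

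The 6 homeobox genes that were not tested had a mean FPKM of 0.231 or less. The prospero homeobox protein 1-like gene LOC113635118, whose mammalian counterpart directs lymphatic vessel identity, was the only untested gene of the 49 with groups that did not overlap. Its FPKM was 0.118, 0.19 and 0.144 in transport replicates 1, 2 and 3, against 0.262, 0.222 and 0.452 in control replicates 1, 2 and 3, which rests on 20 to 34 and 36 to 78 counts a library. The share of all untested genes of the table whose groups did not overlap was not taken, so there is no background for this gene. SEBOX-like, goosecoid-2-like, tlx1, shox2 and gbx2 had a mean FPKM of 0.129, 0.0351, 0.0175, 0.0133 and 0.00825. None of these last 5 genes had more than 16 counts in a library.

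The LBX genes carry a homeodomain and act in limb muscle precursors and the spinal cord of vertebrates. lbx2 had an FPKM of 1.07, 0.776 and 1.98 in transport replicates 1, 2 and 3, against 3.78, 2.07 and 1.24 in control replicates 1, 2 and 3. The groups overlapped, since control replicate 3 was below transport replicate 3. The log2 fold change was -1.36 (standard error 0.65), the lowest of the 27 genes, with an adjusted p of 0.337 in edgeR's test and 0.141 to 0.669 over the alternatives. It was -0.53 without control replicate 1. lbx1, beside tlx1 on scaffold NW_020848202.1 with 23687 bases between them, had a mean FPKM of 0.0697 and was not tested.

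The putative Ovo-like 1 gene LOC113635229 was the one gene of a list of keratinocyte and epidermal transcription factors found in the table, and OVOL1 is known in mammals for restraining growth of epidermal cells as they differentiate. Its FPKM was 24.4, 15.6 and 23.1 in transport replicates 1, 2 and 3, against 4.98, 10.9 and 16.9 in control replicates 1, 2 and 3. The groups overlapped at transport replicate 2 and control replicate 3. The log2 fold change was 0.71 ± 0.31 (standard error), with an adjusted p of 0.308 from edgeR's test (0.0949 to 0.642 over the alternatives).

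foxe1 and Sox-3-like had the same order of libraries as envoplakin (evpl), which in mammals encodes a scaffold of the cornified layer. evpl was the one listed keratinocyte marker found in the table. In foxe1, Sox-3-like and evpl, transport replicate 1 was the highest library. Transport replicates 3 and 2 and control replicates 3, 2 and 1 followed in that order. Ovo-like 1 differed only in that control replicate 3 stood above transport replicate 2. These orders were not particular to epidermal genes. keap1, on the list of hypoxia and oxidative stress factors, had the order of evpl, and Elf-1-like had that of Ovo-like 1. Control replicate 1 was the lowest library in 63.2% of all genes tested, and how many genes shared the full order was not counted. evpl had an FPKM of 47.7, 30.4 and 41.7 in transport replicates 1, 2 and 3 and 3.93, 11.9 and 19.7 in control replicates 1, 2 and 3. Its log2 fold change of 1.54 ± 0.42 (standard error) had an adjusted p of 0.173 in edgeR's test. The FPKM of foxe1 relative to that of evpl was 0.258, 0.224 and 0.244 in transport replicates 1, 2 and 3, against 0.428, 0.241 and 0.209 in control replicates 1, 2 and 3, and overlapped. For Sox-3-like this ratio was 0.112, 0.114 and 0.116, against 0.335, 0.176 and 0.119, and for Ovo-like 1 it was 0.512, 0.514 and 0.554, against 1.27, 0.912 and 0.858. Relative to evpl these last 2 genes were thus lower in every transport library than in every control library. The division itself makes this likely, since evpl had a larger log2 fold change (1.54) than Sox-3-like (0.95) and Ovo-like 1 (0.71). For SOX-4-like and hlx the ratio was at most 0.0738 and 0.132 in transport libraries and at least 0.199 and 0.227 in control libraries. That was fixed in advance and adds nothing on these genes. Their own FPKM was lower in every transport library than in every control library, and that of evpl was higher. The ratio to evpl was chosen after its values were seen, evpl is a single gene, and the part of the keratinocyte content in these results was not tested.

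**Figure D3:**
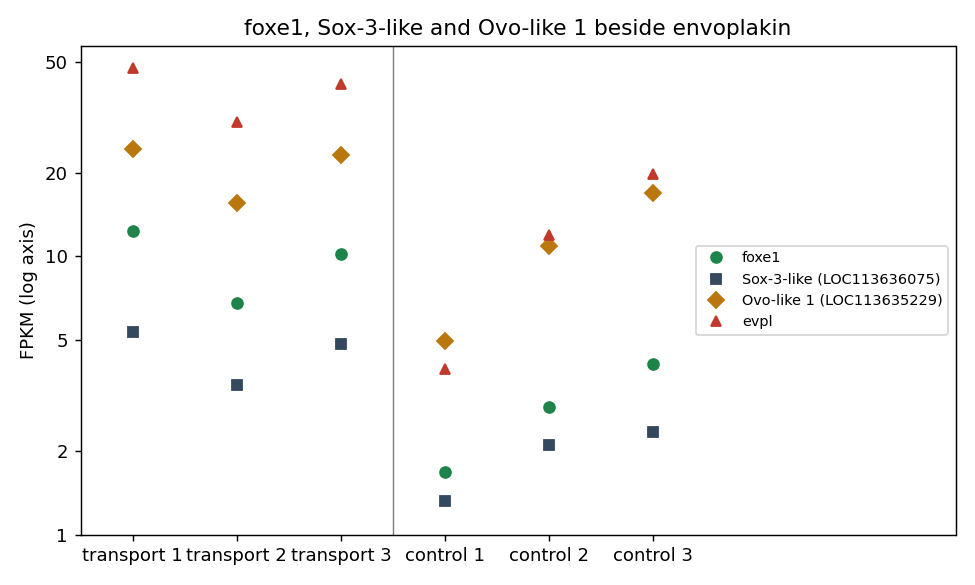
FPKM (log axis) of foxe1, Sox-3-like, Ovo-like 1 and the keratinocyte gene evpl in each library, with transport libraries on the left and control libraries on the right. All 4 genes are highest in transport replicate 1 and lowest in control replicate 1, and evpl spans 3.93 to 47.7.

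Other cell type markers in the table varied between libraries, as follows. The 2 pigment cell genes, tyrp1 and mlph, summed to an FPKM of 1.55 to 3.22 in transport libraries and 3.61 to 7.98 in control libraries. Alone, tyrp1 did not overlap (0.511 to 1.48, against 2.07 to 6.17), but mlph did (1.04 to 1.73, against 1.54 to 2.33). The 6 skeletal muscle genes summed to 2456 to 4543 in transport libraries and to 11147, 6610 and 2287 in control replicates 1, 2 and 3. In control replicate 1 the myosin light chain 2 gene LOC113636033 alone had 9075. The log2 fold change was 0.73 (standard error 0.45) for the troponin I gene LOC113635612. It was negative for the other muscle genes, down to -1.81 (standard error 0.60) for LOC113636534. The 2 mucous cell genes summed to 97.5 to 181 in transport libraries and 61.2 to 204 in control libraries. Of these, mucin-2-like (LOC113635236) was listed at 0 in control replicate 2 and at 0.0384 or less in the other control libraries. It had 0.347 to 8.59 in transport libraries. sparc, the one dermal gene, ranged from 853 to 2111 in transport libraries and 282 to 4408 in control libraries. The endothelial gene, a VEGF receptor, had 3.41 to 7.15 in transport libraries and 2.29 to 5.63 in control libraries, and the 2 nerve and glia genes summed to 25 to 33.7 and 14.1 to 35.5. The 1 leukocyte gene, an immunoglobulin segment, had 0.103 to 0.474 in transport libraries and 0 to 0.219 in control libraries. The erythrocyte list had 0 genes in the table, and keratin genes were not analysed here. Only evpl and the mucous cell genes bear on the skin label, and mucin-2-like was near 0 in control libraries. evpl was lowest, at 3.93, in control replicate 1, where the muscle genes had their highest sum. The part of these cell types in the differences of the transcription factor genes was not tested.

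The nuclear receptor subfamily 4 group A member 1-like gene LOC113635269 is the one nuclear receptor of the set. Its mammalian counterpart NR4A1 is an orphan receptor and an immediate early gene. The FPKM was 9.26, 11.8 and 10.6 in transport replicates 1, 2 and 3, against 27.6, 8.73 and 8.70 in control replicates 1, 2 and 3. A single library, control replicate 1, carried the difference. The log2 fold change was -1.01 ± 0.63 (standard error), with an adjusted p of 0.445 from edgeR's test. It was 0.14 without that library. fosb, an AP-1 gene of the same immediate early kind and no member of the set, had 10.2, 13.1 and 10.4 in transport replicates and 41.0, 19.1 and 3.16 in control replicates, and was also highest in control replicate 1.

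atf4 was precise but depended on the scaling. It had an FPKM of 671, 574 and 630 in transport replicates 1, 2 and 3, against 448, 637 and 711 in control replicates 1, 2 and 3, and the groups overlapped. As TMM-scaled CPM (counts scaled to mapped reads) it had 1737, 1629 and 1695, against 1966, 1969 and 2035, and the groups did not overlap. The fitted log2 fold change was -0.24 ± 0.14 (standard error), with an adjusted p of 0.43 from edgeR's test. Without TMM factors it was 0.06. The adjusted p over the alternatives was 0.0732 to 0.892.

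The factors of leukocytes and NF-κB signalling overlapped between the groups. spi1 encodes PU.1, which directs myeloid and B cells, and had an FPKM of 12.2, 7.77 and 9.99 in transport replicates 1, 2 and 3, against 6.39, 5.40 and 9.06 in control replicates 1, 2 and 3. Its log2 fold change was 0.19 (standard error 0.24). The p65 homolog LOC113635428, the transactivating NF-κB subunit in mammals, had 12.6, 8.87 and 11.3, against 5.86, 8.36 and 11.3, and its log2 fold change was 0.08 (standard error 0.16). The Elf-1-like gene, an ETS factor known from blood cells, had 23.7, 17.2 and 22.6 in transport replicates and 8.87, 14.9 and 21.8 in control replicates. Control replicate 1 was the lowest library for the last 2 of these genes, and control replicate 2 for spi1. Of the 5 listed leukocyte factors in the table, spi1 among them, 0 passed over all genes in edgeR's test and 1 was lower at an unadjusted p under 0.05 (background 9.14%), the interferon regulatory factor 4-like gene LOC113634347 with 1.85, 1.67 and 1.37 in transport replicates, against 1.55, 1.79 and 5.42 in control replicates.

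TCF4 and TCF12 are E proteins, the broadly expressed helix-loop-helix factors that pair with tissue-specific partners. tcf12 had an FPKM of 2.54, 2.91 and 2.11 in transport replicates 1, 2 and 3, against 3.40, 3.93 and 2.41 in control replicates 1, 2 and 3. edgeR's test put the log2 fold change at -0.72 with a standard error of 0.31 and an adjusted p of 0.302, which was 0.0679 to 0.642 over the alternatives. tcf4 had 1.10, 1.95 and 1.65, against 1.6, 2.35 and 0.841, and its log2 fold change was -0.38 (standard error 0.47). In both genes replicate 2 was the highest library of its group. The HES-7.1-like gene LOC113635720, a helix-loop-helix repressor of the somite clock by its name, had 0, 0 and 20 counts in transport replicates 1, 2 and 3 and 67, 13 and 17 counts in control replicates 1, 2 and 3. Its neighbour HES-7-like (LOC113635739), 123 bases away on the opposite strand, had no counts in any library.

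E2F factors control genes of DNA replication, and E2F4 acts mostly as a repressor in resting cells. e2f4 had an FPKM of 2.84 to 3.55 in transport libraries and 1.53 to 3.75 in control libraries. The E2F3-like gene LOC113634760 had 1.32, 0.773 and 0.93 in transport replicates 1, 2 and 3, against 0.295, 0.817 and 0.687 in control replicates 1, 2 and 3, and overlapped by a small margin. The T-box gene LOC113634143, described as TBX6L-like, had 0.834, 0.725 and 0.669, against 0.349, 0.505 and 0.519, and the groups did not overlap. Its adjusted p in edgeR's test was 0.55. This gene and hhex were the only genes of the 27 with a group mean under 0.5.

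gtf2h4 encodes a subunit of TFIIH, the complex that opens promoter DNA and also serves nucleotide excision repair. It was among the steadiest of the set, with an FPKM of 8.72, 8.07 and 8.44 in transport replicates 1, 2 and 3, against 5.33, 7.11 and 7.79 in control replicates 1, 2 and 3. The FPKM did not overlap between groups, yet the TMM-scaled CPM were 27.7, 28.1 and 27.8, against 28.6, 27.0 and 27.3. Its fitted log2 fold change was 0.01 (standard error 0.12).

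**Figure D4:**
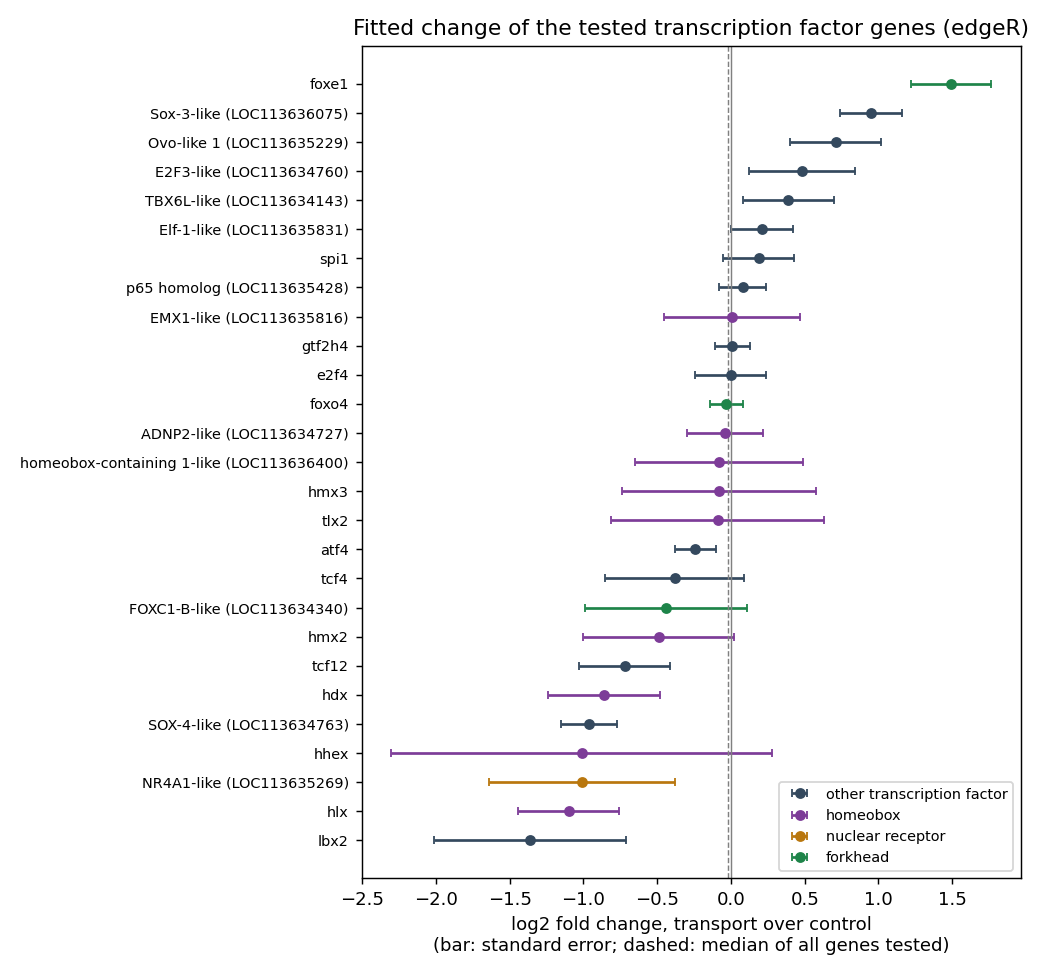
Fitted log2 fold change (transport over control) of the 27 tested genes with its standard error, coloured by class, beside the median of all genes tested (-0.02, dashed). Values run from -1.36 for lbx2 to 1.49 for foxe1. Of the 9 homeobox genes (purple), 8 lie below 0, as do 843 of all 1620 genes tested, and the homeobox median was 0.18 without TMM factors.

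The remaining genes had few counts. Of the 22 untested genes, 6 had counts in every library, 14 in some libraries and 2 (tbx22 and HES-7-like) in none. The POU genes LOC113634444 and pou3f4 had a mean FPKM of 0.0662 and 0.0198, ebf1, a B cell factor in mammals, had 0.103, and the heat shock factor Y-linked-like gene LOC113635195 had 0, 9 and 7 counts in transport replicates 1, 2 and 3 and 0 counts in all control libraries. LOC113634390, a general transcription factor II-I repeat domain gene, had 2 counts in a single transport library. No difference between the groups was detectable for these genes at this depth.

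Most of the 49 genes also shared annotation terms, which choosing them by transcription factor words largely fixed in advance. The table annotates 45 of them to the nucleus (91.8%, against 13.8% of all genes), 34 to DNA-templated regulation of transcription (69.4%, against 4.9%) and 27 to sequence-specific DNA binding (55.1%, against 1.96%). Only 7 were placed in a KEGG pathway (14.3%, against 39.9%). They lie on 20 scaffolds, with 14 of them (28.6%) on NW_020848201.1, which holds 22.1% of all genes of the table. The descriptions mark 5 of the 49 as low quality protein models (10.2%, against 11.3% of all genes). These were lbx2, hmx2, tlx2, the NR4A1-like gene LOC113635269 and the T-box gene LOC113634143. After TMM scaling, the coefficient of variation of counts was larger among control than among transport libraries in 16 of the 27 tested genes (59.3%), against 72.2% of all genes.

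Transcription factors work through the RNA polymerase II machinery and through coregulators. Of the machinery, 11 genes were tested, polymerase subunits, Mediator and TFIID among them and gtf2h4 included. In edgeR's test 0 of the 11 passed over all genes (background 0.37% higher and 0.247% lower). An unadjusted p under 0.05 was found for 0 of the 11 (background 7.72% higher and 9.14% lower). The median log2 fold change of the 11 was -0.14, beside -0.02 for all genes tested. In 4 of them every transport library had a higher FPKM than every control library (background 24.1%). The reverse held for 0 (background 3.7%). Of 10 tested coactivator and corepressor genes, 1 was higher at an adjusted p under 0.05 (background 0.37%), and 0 were lower (background 0.247%). This list was chosen with earlier results of these data known, so its counts cannot be weighed against the background. The higher one was the PPAR gamma coactivator 1-beta-like gene LOC113635862. This gene had an FPKM of 7.27, 6.35 and 7.25 in transport replicates 1, 2 and 3, against 1.06, 1.94 and 2.36 in control replicates 1, 2 and 3, and edgeR's test gave an adjusted p of 0.0278. Before adjustment 3 of the 10 were higher at p under 0.05 and 0 lower (background 7.72% and 9.14%). The other two were the histone acetyltransferase KAT7-like gene LOC113635840, with an FPKM of 10.3, 8.85 and 9.81 in transport replicates 1, 2 and 3 against 3.85, 4.42 and 3.81 in control replicates 1, 2 and 3, and hdac3, a histone deacetylase. edgeR's test gave the KAT7-like gene a log2 fold change of 0.91 with a standard error of 0.18 and an adjusted p of 0.0903.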

How the data were processed

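Poly(A) RNA of skin was sequenced by the authors in 3 transport and 3 control libraries. Reads were trimmed with Cutadapt, aligned with HISAT and assembled with StringTie (HISAT and StringTie are also in the submitters' processing notes). On the genome aligned to, the study is not uniform, with Homo sapiens in its methods and yellow catfish in its results, while protein descriptions in the table name Tachysurus fulvidraco. Versions, build, strandedness and the read counter are not stated, so overlapping genes and near-identical copies cannot be separated with certainty. The deposited file gives read counts, not normalized, and FPKM values that the authors computed with StringTie. Of its 2452 rows, 1 incomplete row was dropped, and 12 columns naming other samples were not used.

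The deposited counts of genes averaging 0.5 FPKM or more were tested in R 4.3.3 with edgeR 4.0.16 (quasi-likelihood test, TMM factors, mapped reads stated by the study as library sizes, Benjamini-Hochberg adjustment over 1620 genes). The standard error is the size of the log2 fold change over the square root of F. DESeq2 1.42.0 and limma 3.58.1 (log2(FPKM + 0.5), without TMM factors) were alternatives. The fit was also run on simulated counts, in which all libraries had the same composition and spread apart from the genes set to change. That run says nothing on the unevenness of the control libraries. Replicates differed by more than sampling noise, with a chi-square a gene of 325.4 to 637 between control libraries. Between transport libraries it was 163.5 for replicates 1 and 2, 73.7 for 2 and 3, and 41.9 for 1 and 3. In most tested transcription factor genes, though not in SOX-4-like, the FPKM of transport replicate 3 lay between those of replicates 1 and 2. Whether the transport libraries are independent was not tested, so p-values and transport SDs may overstate the replication. Named with fitted values are genes at an unadjusted p under 0.05, genes past the thresholds of the study, the genes of highest mean and of largest fold change in each class, and partners of these. Genes and lists were chosen with earlier results of these data known, and a few list matches to other proteins (such as sphingomyelin enzymes) were removed after the matches were seen. Lists of pigment, muscle, mesenchymal and Hox factors had no gene among those analysed here, which are a part of the transcriptome. No set test was run.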

Additional observations from a re-analysis of the deposited data

How the results depend on the processing

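The counts of called transcription factor genes were small and depended on the tool. At an adjusted p under 0.05, edgeR gave 0 higher and 0 lower, DESeq2 gave 2 and 2, and limma voom with sample weights gave 0 and 1. Leaving out each library in turn gave 0 to 1 in each direction, both of the single calls coming without control replicate 3. For voom and the left-out libraries the shares of all genes at this threshold were not taken, so these counts have no background. At an unadjusted p under 0.05 the lower genes of the 27 numbered 2 in edgeR (9.14% of all genes), 6 in DESeq2 (11.5% of all genes), 5 in voom (12.5%), and 1 in limma at each pseudocount (3.21% to 3.33%). With a library left out they numbered 1 to 5, with 5 without control replicate 3 (12.6% of all genes) and 1 without control replicate 1 (8.15%) or transport replicate 3 (4.57%). With the fitted log2 fold change in place of the ratio of mean FPKM, 1 gene was higher and 1 lower past the fold and p thresholds of the study's methods. With the ratio of mean FPKM and a library left out, 0 to 1 were lower. The shares of all genes were not taken for these threshold counts either. Requiring a mean FPKM over 10 in either group, an alternative chosen after seeing the data, left 0 higher. The median log2 fold change of the genes minus that of all genes tested was -0.06, and -0.11 in limma with a pseudocount of 1, -0.01 in voom, and -0.15 to 0.00 with a library left out.

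Without TMM factors the log2 fold change turned to 0.26 for foxo4 and 0.06 for atf4. In limma, which also ran without TMM factors, it was 0.27, 0.29 and 0.25 for foxo4 at pseudocounts of 0.5, 0.1 and 1. For atf4 it was 0.09 each time, and for tcf4 0.02, 0.04 and 0.01. In voom it was 0.00 for the FOXC1-B-like gene. With a library left out it ran from -0.27 to 0.64 for EMX1-like, -0.06 to 0.00 for foxo4, -0.81 to 0.08 for FOXC1-B-like, -1.37 to 0.14 for NR4A1-like, -0.01 to 0.33 for spi1 and 0.00 to 0.19 for the p65 homolog. The cause was not tested. The replicate numbers are shared by the groups, but the labels do not say that they mark a pair, and deviations of same-numbered libraries correlated at -0.073, 0.081 and 0.083. With the replicate number as a block, 0 genes were called in either direction, and 2 were higher and 3 lower at p under 0.05 before adjustment. The shares of all genes were not taken for the block, so these counts have no background. Among the transport libraries, 2 of 3 correlated best with their own number. Of the 301 alternative values for 16 named genes, 274 kept direction and call. Genes under an FPKM of 0.5 rest on few counts, which limits what can be seen.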

Other observations

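The circadian clock is driven by helix-loop-helix factors and their repressors, and 3 of its genes were in the table. The ARNT-like protein 1 gene LOC113635643, which encodes the BMAL1 partner of CLOCK, had an FPKM of 8.86, 11.7 and 10.5 in transport replicates 1, 2 and 3, against 7.83, 14.1 and 11.5 in control replicates 1, 2 and 3. The cryptochrome-2-like gene LOC113635955 had 5.74, 5.60 and 7.44, against 3.08, 10.8 and 6.89, and the period 1-like gene LOC113635106 had 8.75, 7.44 and 9.09, against 3.52, 8.48 and 8.14. In all 3 genes control replicate 1 was the lowest library and control replicate 2 the highest of its group, and 0 of 3 passed over all genes in edgeR's test, with 0 at an unadjusted p under 0.05.

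Of 2 tested genes on the list of hypoxia and oxidative stress factors, atf4 and keap1, 0 passed over all genes in edgeR's test (background 0.37% higher and 0.247% lower). keap1, which encodes the adaptor that holds NRF2 for degradation, had an FPKM of 15.6, 10.8 and 14.5 in transport replicates 1, 2 and 3, against 3.65, 8.26 and 10.4 in control replicates 1, 2 and 3. Every transport library was above every control library, as in 24.1% of all genes tested. edgeR's test put the log2 fold change at 0.63 with a standard error of 0.25 and an adjusted p of 0.278. Of 3 tested genes on the list of glucocorticoid-responsive genes, 1 was higher at an adjusted p under 0.05 (background 0.37%), and 0 were lower (background 0.247%). The list was chosen with earlier results of these data known, so its counts cannot be weighed against the background. The higher one was zbtb16, a zinc finger repressor gene (9.98, 15.6 and 11.2 FPKM in transport replicates 1, 2 and 3, against 1.85, 1.6 and 1.34 in control replicates 1, 2 and 3, adjusted p = 0.0376 in edgeR's test). nfkbia, which encodes the NF-κB inhibitor alpha, was lower in every transport library, as were 3.7% of all genes tested. Its FPKM was 81.4, 80.1 and 77.6, against 111, 293 and 397, with an adjusted p of 0.0644 in edgeR's test. hsd11b2, which encodes a cortisol-inactivating enzyme, overlapped, with 14.9 to 18.4 in transport libraries and 11.3 to 18.9 in control libraries, and the receptor gene itself was not analysed here.

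A pair of regulators had very low values in 1 library. hhex had 0 counts in transport replicate 1 and 34 to 95 in the other libraries, and rcor2, a corepressor gene of the REST complex, had an FPKM of 0.0947 in transport replicate 2, against 5.46 and 6.45 in the other transport libraries and 3.12 to 8.50 in control libraries.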
